A study of Mus musculus and Rattus norvegicus with 2 samples.

Results

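Rat sense reads under messenger RNA (mRNA) records are the small RNA reads of rat caput sperm that the deposited table matches, on the plus strand, to a GenBank entry marked as mRNA. They were chosen by the matched entry and the strand alone. They comprised 346807 of 650877 listed rat sequences and 2359214 of 14652889 listed rat reads, or 16.1% (exact Clopper-Pearson 95% interval 16.1 to 16.1), spread over 32421 records. Most sequences were rare: 87.8% were read once. The library was made from purified sperm of the caput epididymis of Sprague Dawley rats, labelled as young adults of 450 g. The only other library of the series was made the same way from C57BL/6 mice of 2 months. Both are described as the fraction of 18 to 45 nt of Trizol-extracted total RNA, and no genotype, treatment or number of animals is given. Sense reads under mRNA records were nonetheless as long as 96 nt in rat and 87 nt in mouse. With 1 library per species there is no replicate spread and no test, and every interval covers counting error only, since PCR reads without molecular identifiers are not independent molecules.

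Sperm leave the testis with a condensed nucleus and almost no cytoplasm, and they mature in the caput, the head of the epididymal duct, whose lining secretes proteins and vesicles into the lumen. Pieces of mRNA, ribosomal RNA (rRNA), transfer RNA (tRNA) and mitochondrial RNA are all known from sperm small RNA. A GenBank entry marked as mRNA need not be a coding transcript, because a cDNA clone can start from rRNA, tRNA or mitochondrial RNA. Lasting RNA pieces tend to recur with the same ends, whereas random pieces of a long transcript differ from read to read.

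Most of the reads under rat mRNA records were rRNA-like. Reads were first compared with words cut from reads that the same library lists under rRNA, tRNA, mitochondrial or other small RNA entries, using references with at least 100 reads. On that comparison 1410558 reads, 59.8% (59.7 to 59.9), were rRNA-like. Another 9.86% were mitochondrial, 82339 reads or 3.49% (3.47 to 3.51) were tRNA-like, and 632348 reads, 26.8% (26.7 to 26.9), remained. Of the 25 records with the most remaining reads, 22 belonged to records with at least 50% of reads matching rRNA, tRNA, mitochondrial or other small RNA, or named for an rRNA or mitochondrial locus, once the references were widened. A second separation, chosen after seeing the data, used references of 2 or more reads from both libraries together with annotated mouse small RNAs.

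The sequences below carry that separation. The first set shows forms with the start of 28S rRNA, with capitals for the 35 bases that all 4 share.
28S form of 41 nt, 510984 reads: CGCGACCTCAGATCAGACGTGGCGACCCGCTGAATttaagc
28S form of 36 nt, 285442 reads: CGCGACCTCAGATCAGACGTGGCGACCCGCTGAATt
28S form of 35 nt, 111919 reads: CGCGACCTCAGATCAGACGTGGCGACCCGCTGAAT
28S form of 37 nt, 47953 reads: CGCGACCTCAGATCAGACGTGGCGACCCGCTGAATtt

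These forms share a 5′ end and differ in where they stop. All sequences sharing their first 18 bases summed to 1017649 reads, 43.1% of the reads under rat sense mRNA records, in only 7 records. Of all listed rat reads with this start, 86.5% lay under sense mRNA records and 143737 reads lay under rRNA entries. The same piece of rRNA was thus listed partly as mRNA and partly as rRNA.

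The next set shows the leading tRNA-like sequences, with the terminal CCA in capitals, the end that is added to a finished tRNA.
tRNA-like of 45 nt, 17636 reads: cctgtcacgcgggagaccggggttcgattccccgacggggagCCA
tRNA-like of 30 nt, 4961 reads: tcccacatggtctagcggttaggattcctg
tRNA-like of 44 nt, 3656 reads: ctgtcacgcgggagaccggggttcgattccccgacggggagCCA

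Both forms with capitals are the 3′ part of an aspartate tRNA and differ by 1 base at their start, whereas the 30-nt form is the start of a glutamate tRNA. Sequences ending in CCA held 35.5% of the tRNA-like reads on the first comparison. The 45-nt form lay under the record FQ233311.1 and the 30-nt form under FQ226040.1.

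Another set shows mitochondrial forms, with capitals for the 29 bases that they share.
Mitochondrial form of 47 nt, 22894 reads: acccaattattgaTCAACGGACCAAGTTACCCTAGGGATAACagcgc
Mitochondrial form of 42 nt, 8318 reads: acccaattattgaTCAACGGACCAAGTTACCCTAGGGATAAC
Mitochondrial form of 52 nt, 7245 reads: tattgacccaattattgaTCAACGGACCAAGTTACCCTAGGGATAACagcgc
Mitochondrial form of 29 nt, 6954 reads: TCAACGGACCAAGTTACCCTAGGGATAAC

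These are pieces of the large rRNA of the mitochondrial ribosome. Matches to mt-Rnr2, the gene of that RNA, made up 96.5% of the mitochondrial reads on the first comparison and 86.6% with the wider references. The small mitochondrial rRNA, mt-Rnr1, held 1.85% with the wider references. Reads named for mitochondrial tRNA and protein genes were few, led by mt-Tm with 465 reads. Another 31171 reads, 11.3% with the wider references, took no gene name. The part of tRNA and protein genes in them is therefore not known here.

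The last set shows the 3 most abundant sequences that the first comparison left unassigned, again with a terminal CCA in capitals.
Left over, 22 nt, 5479 reads: tcgtttcccggccaatgcaCCA
Left over, 50 nt, 4883 reads: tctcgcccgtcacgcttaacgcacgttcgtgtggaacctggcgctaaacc
Left over, 18 nt, 4074 reads: tacctggttgatcctgcc

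The wider references placed the 22-nt form with other small RNA and the other forms with rRNA. The 18-nt form is the start of 18S rRNA. Reads ending in CCA formed 41.5% of the reads placed with other small RNA, so that group also holds tRNA-like 3′ ends.

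With the wider references, 1622489 reads or 68.8% (68.7 to 68.8) of the sense reads under rat mRNA records were rRNA-like. Mitochondrial RNA held 274762 reads or 11.6% (11.6 to 11.7), tRNA 88084 reads or 3.73% (3.71 to 3.76) and other small RNA 24721 reads or 1.05% (1.03 to 1.06). Reads were left in 3 kinds of record. Records with 50% or more of their reads set apart, or named for an rRNA or mitochondrial locus, kept 30420 reads (1.29%), and 21 records in which a single sequence held 25% or more of at least 100 kept reads had 12450 (0.528%). All other records together kept 306288 reads, 13.0% (12.9 to 13.0), and these are called transcript fragments here.

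**Figure D1:**
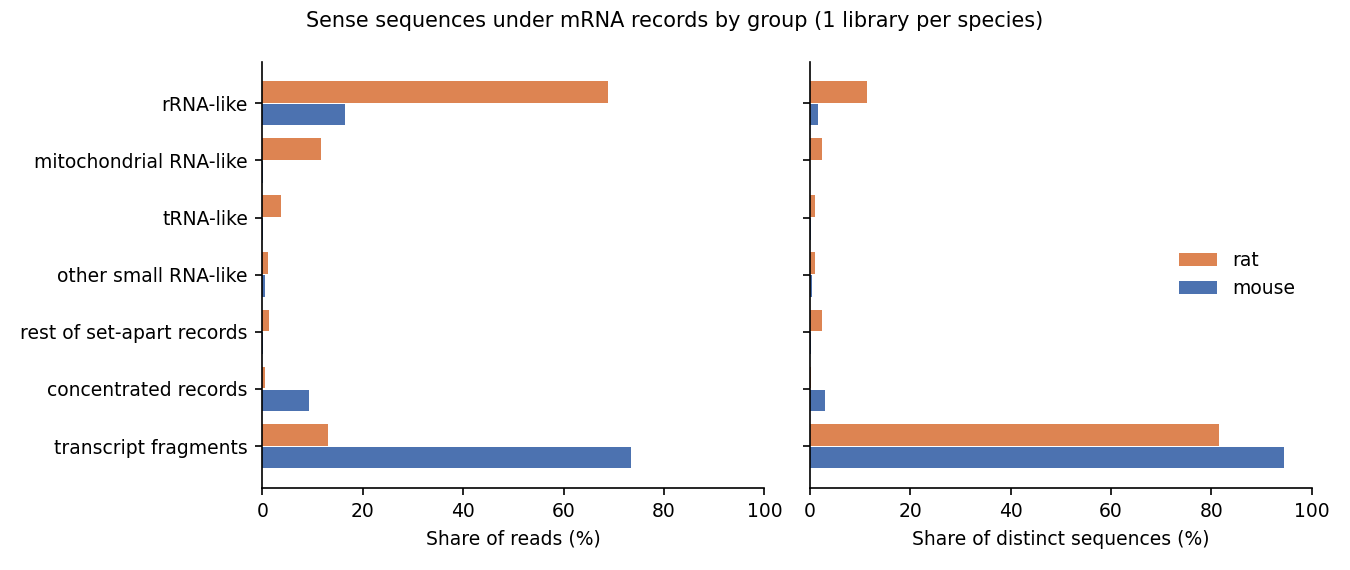
Share of sense reads (left panel, %) and of distinct sequences (right panel, %) under mRNA records in each group, with 1 bar per library. In rat, rRNA-like sequence held 68.8% of reads but 11.4% of sequences, and transcript fragments held 13.0% of reads but 81.4% of sequences.

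By distinct sequences the order turned round. Transcript fragments were 282414 of the 346807 sequences, 81.4%, with 1.08 reads per sequence, whereas rRNA-like sequences were 11.4% with 41.1 reads per sequence. The mouse library gave a different balance for the same kind of record. Of its 1895073 sense reads under mRNA records, 73.3% (73.3 to 73.4) were transcript fragments, 16.5% were rRNA-like, 0.198% were tRNA-like and 0.0336% were mitochondrial. Sense reads under mRNA records were 16.1% of the listed reads in mouse as well as in rat, so a like total hid an unlike content. The species, the animals, the libraries and the sets of records searched cannot be told apart here.

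Among the rRNA-like reads of the first comparison, 93.3% matched rRNA given as long GenBank entries, 5.67% matched 5S rRNA, 0.645% the small subunit and 0.417% a named 5.8S entry. The start of 5.8S rRNA, the short rRNA that pairs with 28S, summed to 55382 reads in 5 records. The 3′ part of 5S rRNA that starts with the sequence below summed to 17027 reads in 3 records. Their leading forms are shown as the counterparts of the 28S start.
5.8S form of 38 nt, 9430 reads: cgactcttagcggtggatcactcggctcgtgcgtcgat
5S form of 24 nt, 8334 reads: ggaataccgggtgctgtaggcttt

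Before separation most of the leading records were rRNA-like, with tRNA-like records at ranks 8 and 9. The record FQ216225.1 alone held 821437 reads, 34.8% of the total, of which all but 93 were rRNA-like and 62.2% were the 41-nt form. FQ225375.1 followed with 125535 reads and FQ232028.1 with 61125, and both were also led by a form of the 28S start. The next records were FQ212247.1 with 44720 reads, EU605813.1 with 43579, AY164741.1 with 43366 and AF132045.1 with 35246, all at least 99.6% rRNA-like. FQ214607.1 with 33831 reads was 69.8% tRNA-like and 29.8% other small RNA, and FQ233311.1 with 32405 reads was tRNA-like. The other small RNA of FQ214607.1 included the 22-nt form ending in CCA, with 5479 reads, so its tRNA-like share may be too low. Next came FQ211544.1 with 30078 reads, all but 75 of them rRNA-like.

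Only 8 records were needed to reach 50% of the sense reads. For transcript fragments the same share took 1982 records, and the leading record held 1.63%. Records with names beginning FQ, a numbered series of GenBank entries, carried 80.6% of all sense reads but 19.4% of the transcript fragments. Curated RefSeq mRNA records carried 8.72% of all sense reads and 60.8% of the transcript fragments.

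**Figure D2:**
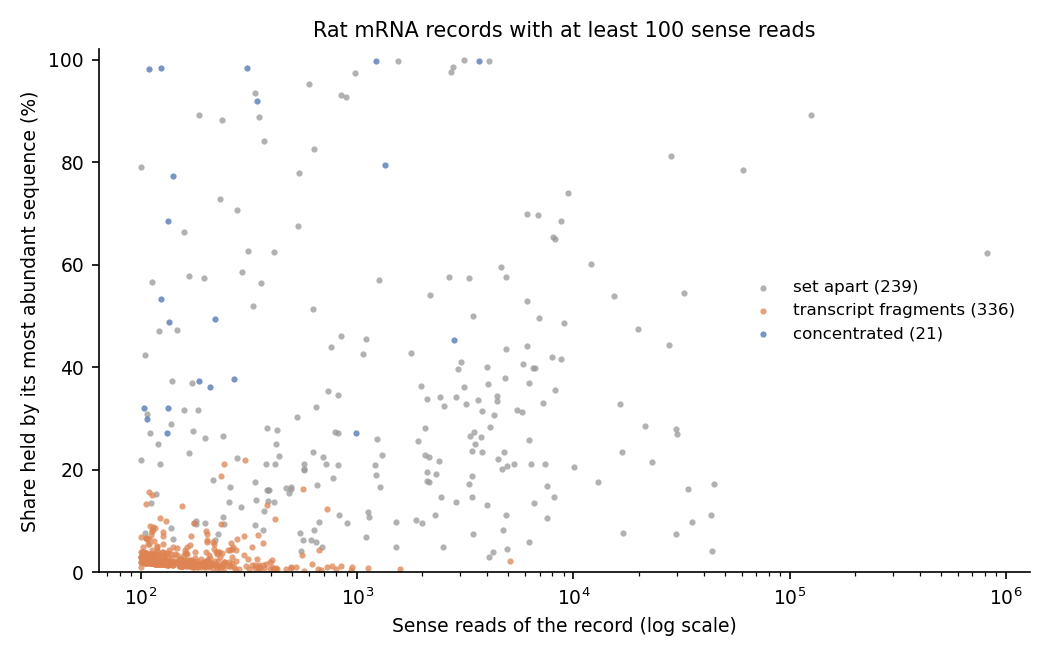
Each point is a rat mRNA record with at least 100 sense reads, placed by its reads (log axis) and by the share of them held by its most abundant sequence (%). The 336 records of transcript fragments lie at the bottom with a median share of 2.06%, against 25.95% for the 239 records set apart and 49.3% for the 21 concentrated records.

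Records were separated by the evenness of their reads as well as by sequence. Among records with at least 100 sense reads, the most abundant sequence held a median of 25.95% in the 239 records set apart, with a range from 3.0% to 99.8%. In the 336 records of transcript fragments it held a median of 2.06%, from 0.352% to 21.9%. The rule for concentrated records used this share at a limit of 25% of the kept reads, so the gap above that limit is a result of the rule. Just outside the limit the highest share of kept reads was 21.2%, and just inside it the lowest was 29.8%.

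The 21 concentrated records kept sequences that no reference matched. NM_001025120.1 had 3676 reads, 3662 of them a single 19-nt sequence with 2 mismatches to the record. AY742900.1 had 1215 reads, 1212 of them a single 18-nt sequence with 2 mismatches. NM_001170596.1 had 1341 reads with 1064 in a single sequence. FQ233407.1 had 2790 reads and is shown because its leading forms share a 5′ end, with capitals for the 30 bases shared by the forms.
FQ233407.1, 30 nt, 1266 reads: GCGCCGCTGGTGTAGTGGTATCATGCAAGA
FQ233407.1, 34 nt, 620 reads: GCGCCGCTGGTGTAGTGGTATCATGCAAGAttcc
FQ233407.1, 33 nt, 289 reads: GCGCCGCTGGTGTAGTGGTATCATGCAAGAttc

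The shared bases are the start of a glycine tRNA. The record was left out of the transcript fragments by the rule on concentration and not by sequence. Its reads are therefore not in the tRNA-like share. Whether sequences of other concentrated records are pieces of tRNA was not tested.

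**Figure D3:**
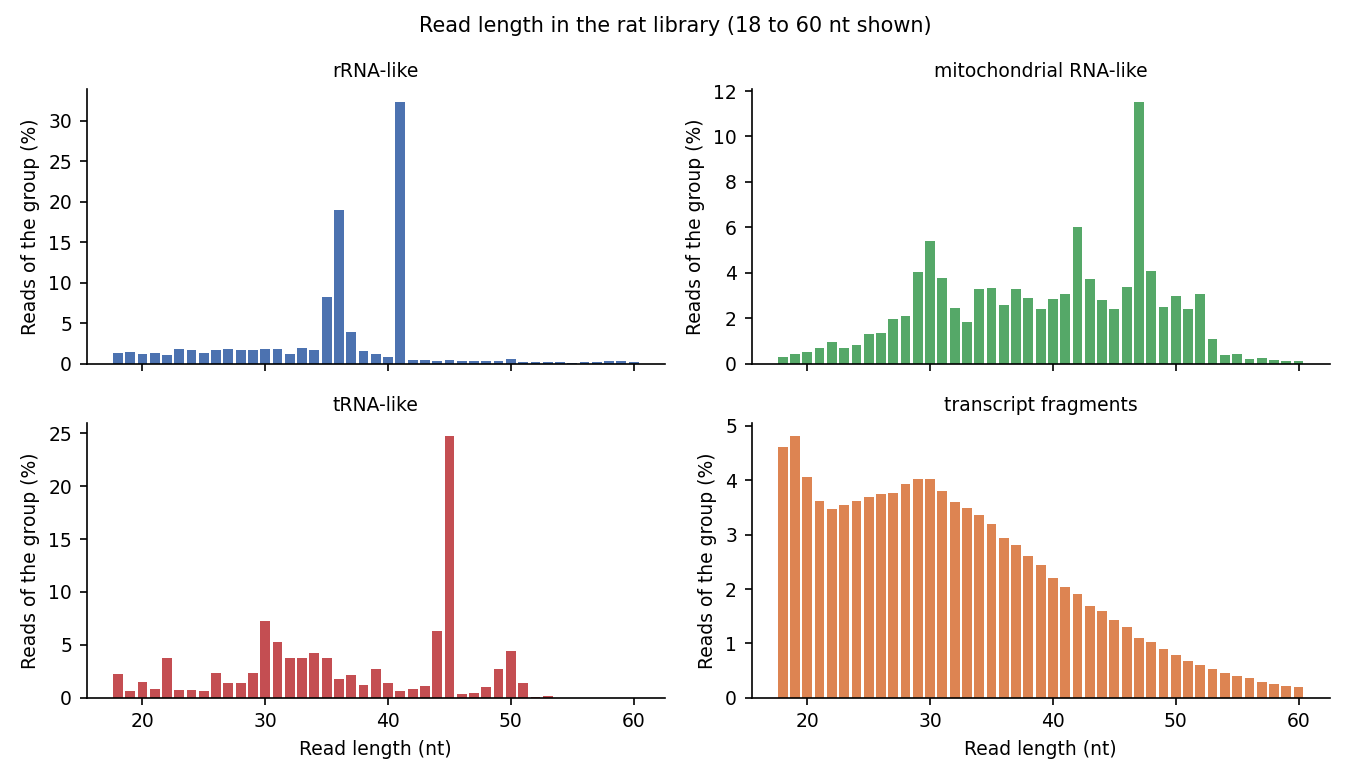
Share of the reads of each rat group (%) at each read length (nt). The rRNA-like reads peak at 41 nt with 32.3%, the mitochondrial reads at 47 nt with 11.5% and the tRNA-like reads at 45 nt with 24.7%, while no length of the transcript fragments exceeds 4.81%.

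The commonest length differed between the groups, although no length was used to form them. The 41-nt reads were 32.3% of the rRNA-like reads, the 45-nt reads 24.7% of the tRNA-like reads and the 47-nt reads 11.5% of the mitochondrial reads. Most reads of each peak were a single sequence: 510984 of 523964, 17636 of 21761 and 22894 of 31638. Over distinct sequences the median lengths were 36, 33 and 35 nt in these groups and 30 nt in transcript fragments. Transcript fragments had no such peak: 19 nt, their commonest length, held 4.81%, and the median was 30 nt. The rule on concentration had removed records led by a single sequence, and 42.3% of their 12450 reads were 19 nt long. That rule itself works against a peak, so its absence supports nothing further. Of their reads, 87.8% matched the record exactly, 5.29% had 1 mismatch and 6.90% had 2. Among distinct fragments of 18 to 25 nt, 35.5% began with A, against an A content of 21.7% over all their bases. The matching shares in mouse were 29.0% and 22.8%.

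To name the rat records without a rat annotation, their reads were compared with mouse transcripts by words of 20 nt, and a record took a mouse gene's name when at least 3 sequences and 60% of the matched ones pointed to that gene. This named 9205 of 31542 transcript records, which held 76.6% of the transcript fragments. Coding genes numbered 5664 with 229996 reads, and 387 of them had 100 reads or more. The same procedure in mouse gave 10379 coding genes with 1223474 reads. Rat genes whose sequence differs much from mouse are missed, and close paralogs can share a name.

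Lcn5, a lipocalin that caput epithelium secretes and that binds retinoids, led the ranking of transcript-fragment records and genes. Its record NM_024136.1 kept 4989 reads (exact Poisson 95% interval 4852 to 5129) in 2251 sequences, and its most abundant sequence had 114 reads. FQ234173.1 kept more, 5879 reads, and is not ranked here because it took the name Gm26917, an rRNA locus. No antisense read remained under the Lcn5 record. The mouse gene lies on chromosome 2 of GRCm38, from 25657952 to 25661977 on the plus strand. Longer forms of 37 nt with 60 reads and 34 nt with 57 reads, which share a start, are not shown. The rat forms below lead among placed reads of 30 nt or less. They start at bases 249 to 253 of the mouse transcript, in its coding sequence, and capitals mark the 17 bases that they share.
Lcn5, 20 nt, 114 reads: accTTCTGGCTCTGACCACC
Lcn5, 21 nt, 40 reads: aaccTTCTGGCTCTGACCACC
Lcn5, 23 nt, 35 reads: accTTCTGGCTCTGACCACCacc
Lcn5, 20 nt, 23 reads: TTCTGGCTCTGACCACCacc

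The short forms shown varied at both ends, while the longer forms not shown shared a start. Rat Lcn5 fragments that could be placed on the mouse transcript began at 303 different positions and covered 91.4% of its 696 bases, with the greatest depth, 964 reads, at base 89 and a further peak of 609 reads at base 254, where the forms above lie. In mouse the depth was greatest at base 10, with 1028 reads, and 45.4% of the placed reads lay in the 5′ untranslated region against 0 rat reads. Only 55.9% of the rat Lcn5 reads could be placed, and a rat 5′ end unlike the mouse sequence would go uncounted.

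**Figure D4:**
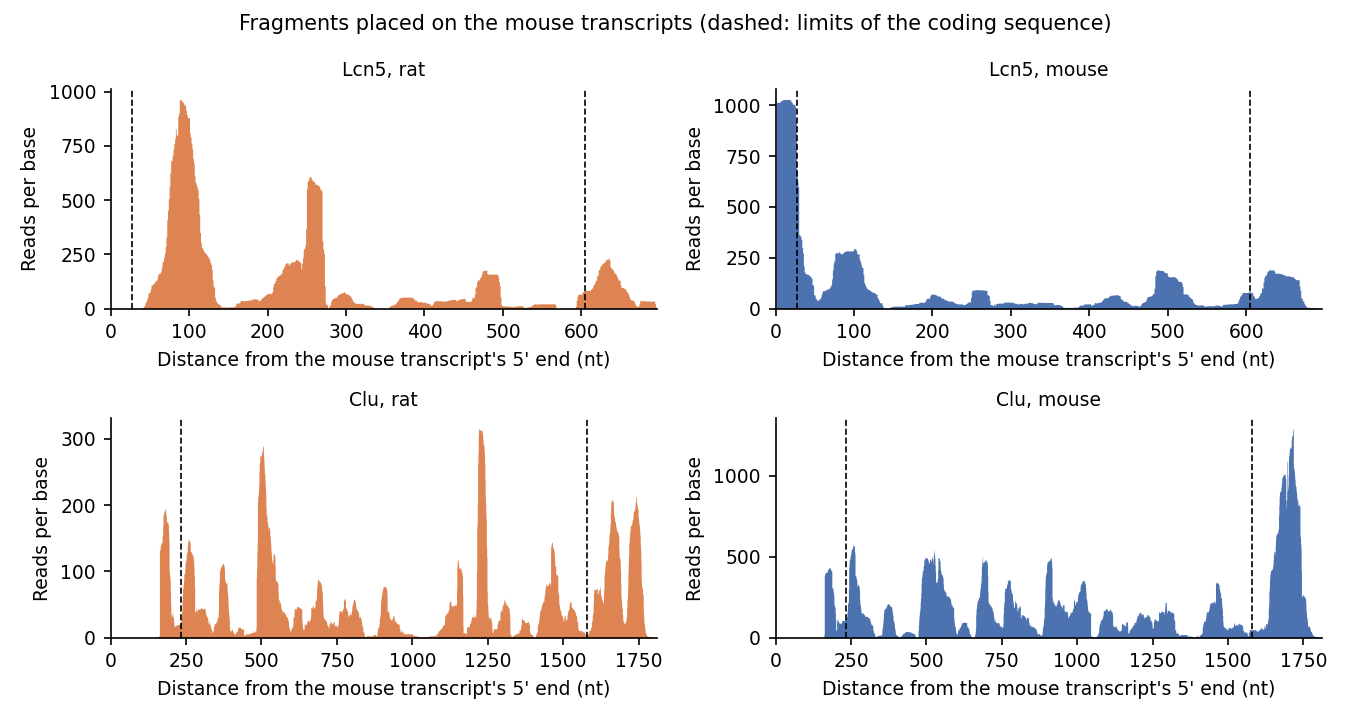
Reads per base against the distance from the 5′ end of the mouse transcript (nt) for Lcn5 and Clu fragments in each library, with dashed lines at the limits of the coding sequence. Rat Lcn5 is deepest at base 89 and mouse Lcn5 at base 10, and rat Clu is deepest at base 1220 and mouse Clu at base 1716.

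Clu, the extracellular chaperone clusterin, came next with 3661 reads (3543 to 3782) in 17 records and 2428 sequences. The mouse gene lies on chromosome 14 of GRCm38, from 65968483 to 65981547 on the plus strand. The most abundant rat Clu sequence had 22 reads and is not shown. The leading forms among placed reads of 30 nt or less are given below, with capitals for the shared 20 bases. They stand for a gene whose reads were more evenly spread.
Clu, 20 nt, 18 reads: AGAGATCTTGTCTGTGGACT
Clu, 21 nt, 16 reads: aAGAGATCTTGTCTGTGGACT

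Rat Clu fragments started at 654 positions and covered 91.4% of the 1810 bases of the mouse transcript. The rat depth peaked at base 1220, within the coding sequence, with 315 reads. The mouse depth peaked at base 1716, in the 3′ untranslated region, with 1290 reads.

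Below these 2 genes the counts fell slowly. Reads were not divided by transcript length, so the order is one of reads and not of transcript level. Glul, glutamine synthetase, had 1700 reads and Itm2b, an integral membrane protein, had 1375. Kif1b, a kinesin motor that moves organelles, had 1157 reads. Eef1a1, the elongation factor that brings tRNA to the ribosome, had 1103. The Golgi protein Golgb1 had 1040 reads. Adam7, a membrane protein of caput epithelium that passes to sperm, had 933 reads in 837 sequences, with no sequence above 5 reads.

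Col18a1, a basement membrane collagen, had 846 reads, Ces5a, a carboxylesterase secreted by the epididymis, 800, and Ubap2 762. Scd2, a fatty acid desaturase, had 742 reads, the protease Furin 724 and Acly, which makes acetyl-CoA for lipid synthesis, 701. The endoplasmic reticulum chaperone Calr and the small-RNA silencing scaffold Tnrc6b had 691 reads each. The membrane protein Prom1 had 674, the kinase anchor Akap12 673, the sorting receptor Sort1 645 and the elongation factor Eef2 631. Mroh3 had 615 and the ubiquitin ligase Mycbp2 598. Of these genes from Col18a1 on, only Tnrc6b had a sequence above 10 reads, at 29.

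Some leading names are uncertain. The record NM_001100944.1, with 1575 reads, took the name 4921509C19Rik, but only 66.4% of its reads matched the record exactly and 84.1% of the placed reads fell in the 5′ untranslated region of the mouse gene. NM_001013952.1 with 841 reads and NM_022859.1 with 727 took the names of noncoding mouse transcripts. The 564 reads of BC083694.1, named Snrpb after a spliceosome protein, lay in 87 sequences with 6.48 reads per sequence, and none could be placed on the coding transcript. Its leading sequence is shown because it had the second-highest count among the transcript fragments, with 92 reads. Forms of 71 nt with 85 reads and 41 nt with 79 reads had the same start and another end. The 564 reads stayed among the transcript fragments by rule, and whether they are pieces of the coding mRNA was not tested.
BC083694.1, 42 nt, 92 reads: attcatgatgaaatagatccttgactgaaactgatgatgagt

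The 549 reads named Spag11a may include its close paralog Spag11b, which had 66.

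The leading genes were compared between the libraries as reads per 1000000 fragments of coding genes (coding rpm), since set-apart reads took such different shares. Lcn5 stood at 21692 coding rpm in rat and 2074 in mouse, a log2 ratio of 3.39. Clu stood at 15918 and 7515, a log2 ratio of 1.08. Glul, Itm2b, Eef1a1, Tnrc6b, Sort1, Eef2 and Mycbp2 had log2 ratios between 0.06 and 0.30. Adam7 was lower in rat, at 4057 coding rpm against 11440, a log2 ratio of -1.50, and Calr stood at -0.36. Per 1000000 listed reads of all kinds (listed rpm), Lcn5 stood at 340.5 in rat and 215.7 in mouse, whereas Clu stood at 249.8 and 781.8. Every log2 ratio is lower by 2.73 on that scale, so a coding rpm ratio between 0 and 2.73 changes its sign.

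**Figure D5:**
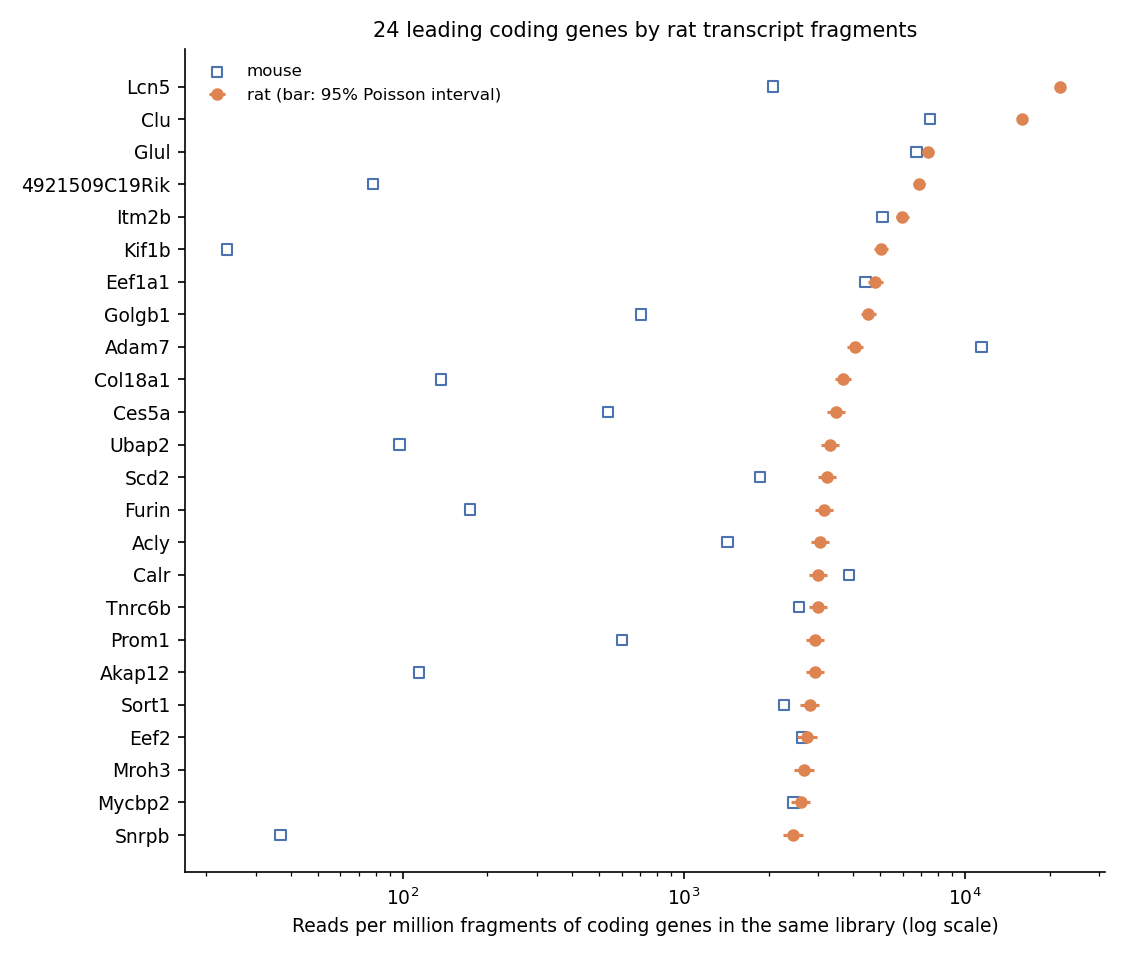
Reads per 1000000 fragments of coding genes (log axis) for 24 of the 25 coding genes with the most rat transcript fragments, with circles for rat, bars for its 95% Poisson interval and open squares for mouse. The genes were chosen by their rat reads, which favours higher rat values. Adam7 and Calr have a mouse value above the rat value, and Mroh3 has no mouse point because it had 0 mouse reads.

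Choosing genes by their rat reads favours ratios above 0, so the ratios of these 24 genes are a description only. Kif1b had 1157 rat and 29 mouse reads (log2 ratio 7.73), Ubap2 762 and 119 (5.09) and Col18a1 846 and 167 (4.75). All counts leave out concentrated records. In mouse these were 486 records with 177444 reads, 9.36% of its sense reads, against 0.528% in rat. How far this lowered single mouse counts was not tested. No ratio is read for 4921509C19Rik and Snrpb, whose names are uncertain. Of the 15 coding genes with the most mouse reads, a choice that favours the other direction, 11 had a log2 ratio below 0, down to -5.18 for Muc5b, a mucin with 17 rat and 3277 mouse reads. Over all 2747 coding genes found in both libraries with a sum of at least 100 reads, 658 (24.0%) were higher in rat by 2-fold or more and 606 (22.1%) were lower by as much. The median log2 ratio was 0.07. A shift of 2-fold between these libraries was therefore common. Another 730 coding genes with at least 100 mouse reads had no named rat record. With listed rpm only 56 genes were 2-fold higher against 2431 lower, so genes higher in rat made up 52.1% of these genes with coding rpm and 2.25% with listed rpm.

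Genes of caput secretion supplied 13712 rat reads (13483 to 13944), from 25 of the 49 list members in the mouse annotation. That was 935.8 listed rpm in rat and 6919 in mouse, or 59618 and 66511 coding rpm. Lcn5 alone made up 36.4% of the rat sum. The comparison took in 24 members: 7 were higher in rat by 2-fold or more and 13 were lower, where 24.0% and 22.1% of all genes were. Their median log2 ratio was -1.32 beside 0.07 over all genes. With listed rpm 2 were higher, 19 were lower and the median was -4.05 beside -2.65. Members entered with at least 100 reads summed over both libraries. Some passed through mouse reads, as Cst8 with 12 rat and 601 mouse reads, and others through rat reads, as Defb29 with 123 and 13. These counts therefore describe the members compared and support nothing further. Fewer cells of a type and less RNA per cell cannot be told apart in such a library.

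The order of the secreted-protein genes by reads differed from that in mouse. Besides Lcn5, Clu, Adam7, Ces5a and Spag11a the members with 100 or more rat reads were the sterol carrier Npc2 with 558 reads, Mfge8 of milk fat globules with 506 and the ribonuclease-like Rnase9 with 396. Further down came Gpx5, an antioxidant enzyme of the caput, with 269, the prostaglandin synthase Ptgds with 265 and the receptor kinase Ros1 with 176. The list closed with the defensin Defb29 at 123 and the lipocalin Lcn2 at 110. Gpx5 had 24611 mouse reads, rank 2 in that library, against rank 96 in rat, a log2 ratio of -4.10. Mfge8 stood at -1.75 and Lcn2 at -1.96, whereas Defb29 stood at 5.65, Rnase9 at 2.76 and Ces5a at 2.70. Lcn8 with 69 rat reads and 1760 in mouse, and Defb20 with 11 and 1860, were also lower in rat, at -2.26 and -4.99. Rnase10, Lcn9, Defb42 and Ovch2 had 0 named rat reads and 2086, 1018, 1134 and 695 mouse reads. A 0 allows up to 3 reads under a named record, and it does not show absence where a rat record was not named.

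Genes of round and elongating spermatids, whose transcripts are made before the nucleus condenses, held 2145 rat reads (2055 to 2238) from 26 of 45 members. The sum was 146.4 listed rpm in rat and 78.8 in mouse, or 9326 and 757.7 coding rpm. With coding rpm, 9 of 10 members passed 2-fold towards rat and 0 towards mouse, where 24.0% and 22.1% of all genes did so, and the median log2 ratio was 2.40 beside 0.07. With listed rpm 4 were higher and 3 lower, with a median of -0.33 beside -2.65 over all genes. Members entered with at least 100 reads summed over both libraries, and the list had 2145 rat and 927 mouse reads. Entry thus leaned on rat reads, so these counts describe the members compared and support nothing further.

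Structural proteins of the sperm tail led this list. Odf2 and Odf1, of the outer dense fibres, had 476 and 373 reads. Oaz3, a spermatid antizyme, had 185, Smcp of the mitochondrial capsule 167, Spata18 152 and the heat shock protein Hspa1l 146. The nuclear proteins that replace histones had fewer reads: Prm1 had 80 reads, Tnp2 42, Prm2 25 and Tnp1 20. Mouse counts of Odf2, Odf1 and Oaz3 were 132, 65 and 16, and Spata18 had 0, with concentrated mouse records left out. Both the caput and the spermatid list were thus present in a library labelled as purified sperm, and the cells that the fragments came from were not tested.

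Marker lists of other cell types were examined as well. Haemoglobin and other red blood cell genes had 0 rat reads in 4 members, the leukocyte list had 8 reads from Csf1r alone of 13 members, and the endothelial list had 7 from Kdr alone of 7. The mouse library had 35 reads in 2 red blood cell members, 701 in 10 leukocyte members and 187 in 4 endothelial members. Since a rat gene reads 0 wherever no rat record was named, these low rat sums do not show that such cells were absent. Smooth muscle and fibroblast genes had 1332 reads from 10 of 12 members, led by the collagens Col1a1 with 488, Col1a2 with 395 and Col3a1 with 216, and by the smooth muscle myosin Myh11 with 111. Of 7 compared, 0 were 2-fold higher in rat and 2 were lower, beside 24.0% and 22.1% of all genes, so the lower count is near the background. Their median log2 ratio was 0.36 (-2.37 with listed rpm). Tagln had 3 rat reads, and Cnn1 and Myl9 had 0. The part of such cells in the other results was not tested.

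The translation and housekeeping list had 4075 reads from 25 of 28 members, at 17718 coding rpm in rat and 18890 in mouse. Of 24 compared, 5 were 2-fold higher and 7 lower, near the 24.0% and 22.1% of all genes, so the counts are no result about this list. Their median log2 ratio was 0.0042 (-2.72 with listed rpm). Its members with 100 or more reads included, besides Eef1a1 and Eef2, Actb with 412, Tpt1 with 399, Actg1 with 182, the ferritin chain Fth1 with 173 and the chaperone Hspa8 with 125. Ribosomal protein genes had 1141 reads from 53 of 86 members, with none at 100 reads. They cannot be compared with the 1199 mouse reads, because the mouse table lists 51007 reads of 93 ribosomal protein genes under entries classed as rRNA, against 920 reads of 74 genes in rat. For the same reason the 312 rat reads of nuclear-encoded respiration genes have no fair mouse counterpart, since 68400 mouse reads of coding genes lie under entries classed as mitochondrial. Histone genes had 479 reads from 19 of 82 members, led by Hist2h2ab with 100.

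Rat fragments that could be placed on mouse transcripts lay mostly in coding sequence. Over all 31542 transcript records, sense reads were 82.9% (82.8 to 83.0) of the reads on both strands, and 1214 records had more antisense than sense reads. Every record entered through its sense reads, so this share describes the records chosen and supports nothing. In the 335 transcript records with 100 or more kept sense reads, a filter that itself acts on the sense count, the share was 98.7%. Of the antisense reads under all transcript records, 59.8% were 18 or 19 nt long and 9.96% matched exactly. Of the rat fragments of coding genes, 44.9% could be placed on a coding transcript of the mouse gene. Of those placed, 81.6% lay in coding sequence, 6.58% in the 5′ untranslated region and 11.8% in the 3′ untranslated region, where transcript length alone would give 60.5%, 7.59% and 31.9%. The mouse values were 69.3%, 4.34% and 26.4%, with 89.5% placed. Rat reads were placed only by words shared with mouse, and the lengths are those of mouse transcripts. Less conserved sequence is thus undercounted in rat, and an untranslated end missing from a rat record can give no reads. An enrichment of coding sequence was therefore not tested.

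Along the transcript the rat fragments were most frequent near the 5′ end. When each transcript was cut into 10 equal bins, bin 2 held 16.9% of placed reads and bin 10 held 3.37%, against 12.4% and 5.73% in mouse. Rat reads were placed by words shared with mouse, so less conserved sequence is undercounted, and its part in this profile was not tested. Untranslated ends of particular genes were nonetheless covered: 72.7% of the placed Scd2 reads and 38.3% of the placed Glul reads lay in the 3′ untranslated region.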

How the data were processed

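Each deposited table holds, per the file headers, whole read counts per distinct sequence with the strand, the matched entry and up to 2 mismatches, as the authors listed them. Bowtie 0.12.7 and the builds mm9 and rn5 are named in the submitters' processing notes, and trimming is not given in the sources used here. Reads were assigned to rRNA, mitochondrial and other small RNA by words of 18 nt and to tRNA by words of 14 nt, where a share of 0.3 of a read's words occurred in the reference reads. Wider references left out entries that hold coding mRNA. Reads assigned on the first comparison, whose references kept such entries, stayed in their group. Fragments were placed on mouse transcripts of GENCODE vM21 (GRCm38) by words of 12 to 20 nt. The members, lists and rules were chosen with earlier results of these data known. The rule named the 10 leading records before separation, the 25 leading records or genes after it, list members with at least 100 reads and the 3 leading sequences of the rRNA-like, tRNA-like and remaining groups. Of the genes it named, 2 are not reported here. Scripts used Python 3.11.15 with pandas 2.3.3 and scipy 1.17.1 and were tested on simulated data. The libraries held 14652889 rat and 11760708 mouse listed reads. No test was made, and alternatives are given in the closing section.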

Additional observations from a re-analysis of the deposited data

Results flagged for a closer look

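Antisense reads under mRNA records are outside the results above. The rat library held 266270 of them, 10.1% of its reads under mRNA records, against 212698 or 10.1% in mouse. After separation by the wider references 81096 rat antisense reads were left, and 53.4% of the antisense reads were rRNA-like. The most abundant antisense sequence, of 18 nt with 1 mismatch to NM_001100760.1 (named Retreg2), had 10599 reads. These signals lie above the 3 reads that a count of 0 allows.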

How the results depend on the processing

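No paired analysis was possible because each species had 1 library. In rat, the rRNA-like, tRNA-like and remaining shares of reads were 59.8%, 3.49% and 26.8%, and the remaining share in mouse was 84.3%. Values below follow that order, and the cause of a shift was not tested. Words of 16 nt (12 nt for tRNA) gave 60.3%, 3.57% and 26.1%, with the mouse share within its interval, and words of 20 nt (16 nt) gave 58.5%, 3.10%, 28.9% and 84.7%. A word share of 0.1 gave 60.5%, 3.58%, 25.9% and 84.2%, and of 0.6 gave 58.9%, 2.14%, 32.1% and 84.7%. Reference reads of at least 10 gave 64.4%, 3.84%, 21.1% and 83.3%, and of at least 1000 gave 52.0%, 2.06%, 45.9% and 88.2%. Without the most abundant sequence the shares were 48.7%, 4.46%, 34.2% and 87.6%. Counted as distinct sequences they were 5.13%, 0.723%, 93.5% and 98.9%. Exact matches alone gave 61.8%, 2.83%, 24.97% and 83.6%, reads of 18 to 45 nt gave 63.5%, 3.43%, 26.2% and 83.4%, and sequences with at least 2 reads gave 68.2%, 3.95%, 16.5% and 81.1%. The wider references, chosen after seeing the data, gave 68.8%, 3.73%, 14.8% and 82.8%, and with the kinds of record 13.0% remained in rat and 73.3% in mouse. The remaining share in rat stayed below that in mouse under each of these settings.

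Of the 25 leading records by remaining reads, 10 were shared when distinct sequences were counted, 18 without each record's leading sequence and 1 after the wider separation. Of the 25 leading records of transcript fragments, 24 and 25 were shared under the first and second of these, and Lcn5 ranked 1 in both. Exact matches alone gave list sums of 12980 for caput secretion, 2030 for spermatids, 1071 for ribosomal proteins, 3830 for housekeeping, 1260 for smooth muscle and fibroblast and 387 for histones. Sequences with at least 2 reads gave 6594, 333, 194, 1074, 334 and 73 for the same lists, 39 for respiration, and 0 for leukocytes and endothelium. Counts of genes 2-fold or more higher and lower in rat were 658 and 606, against 56 and 2431 per 1000000 listed reads. With no minimum of reads 1886 were higher and 727 lower. Depth limits single genes, since 87.8% of the rat sequences were read once.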
